A study of Mus musculus with 23 samples.

Results

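The genes described here are 10 genes that mark T cells and natural killer (NK) cells, chosen by symbol from the 53090 genes in each deposited table: Cd3d, Cd3e, Cd3g, Trbc2, Cd8a, Lck, Nkg7, Gzma, Gzmb and Ccl5. All 10 were found, and 6 of them had enough counts to enter the test across genes, which covered 18720 genes. They were measured by poly(A) RNA sequencing in 23 libraries of brain microglia from female C57BL/6 mice. The 4 groups were young (Y, n = 7), young repopulated (Y-re, n = 3), old (O, n = 5) and old repopulated (O-re, n = 8). In the repopulated groups, microglia had been removed by PLX5622, an inhibitor of the receptor CSF1R given in chow at 1200 ppm, and had then returned, and controls ate the same chow without drug. The drug acts on every cell that needs CSF1R, not on microglia alone. The sources used here give neither ages, nor the length of treatment, nor how long repopulation lasted. The labels describe magnetic selection of CD11b+ cells with culture in one protocol and sorting by flow cytometry in another, and name sorted cells for the RNA. The labels do not say whether each library came from a separate mouse, so p-values measure the spread between these libraries, which may be technical.

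T cells recognise antigen with the T cell receptor, whose variable chains carry no signalling tail of their own. The CD3 chains, encoded by Cd3d, Cd3e and Cd3g, sit beside the receptor and carry tyrosines that the kinase LCK phosphorylates when antigen binds. CD8A is the coreceptor of cytotoxic T cells, and cytotoxic T cells and NK cells kill with granules that hold granzymes (Gzma, Gzmb) and the membrane protein NKG7. CCL5 is a chemokine that attracts lymphocytes and monocytes, and unlike the other genes it is also made by macrophages and microglia. A healthy brain holds few lymphocytes, mostly at its borders, and T cells have been reported inside the aged brain.

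The 3 CD3 genes lie beside each other on mouse chromosome 9 (GRCm38, chr9:44969572-45009627), within 40056 bases. The coding stretch of each signalling motif is shown because it is the part that LCK acts on, taken from the GENCODE M21 transcripts on GRCm38, 5′ to 3′ on the coding strand, with the 2 tyrosine codons of the motif in capitals. The 3 stretches are 45 bases long and lie at coding bases 445 to 489 in Cd3d, 508 to 552 in Cd3e and 478 to 522 in Cd3g.
Cd3d: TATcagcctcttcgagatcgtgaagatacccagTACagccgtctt
Cd3e: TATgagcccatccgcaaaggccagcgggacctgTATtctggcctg
Cd3g: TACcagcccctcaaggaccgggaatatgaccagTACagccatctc

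Trbc2 encodes a constant region of the T cell receptor beta chain (chr6:41546730-41548352), and its neighbour Trbc1 (chr6:41538218-41539881) encodes the other. Their coding sequences were identical at 495 of 518 bases (95.6%), and 283 of the 643 windows of 50 bases in Trbc2 transcripts also occur in Trbc1, so reads of 50 bases could be divided between them and the value of either alone is uncertain. The 60 bases that differ most, coding bases 459 to 518, are shown with the 11 differing bases in capitals.
Trbc2: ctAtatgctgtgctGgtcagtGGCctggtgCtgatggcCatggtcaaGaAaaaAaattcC
Trbc1: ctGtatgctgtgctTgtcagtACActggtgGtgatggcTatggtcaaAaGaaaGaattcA

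Ccl5 (chr11:83525778-83530518, minus strand) is the gene on which the one called difference rests. Its coding sequence of 273 bases is shown with the adjacent pair of cysteine codons, which gives the CC chemokines their name, in capitals. No 50-base window of its transcripts occurs in another gene.
Ccl5: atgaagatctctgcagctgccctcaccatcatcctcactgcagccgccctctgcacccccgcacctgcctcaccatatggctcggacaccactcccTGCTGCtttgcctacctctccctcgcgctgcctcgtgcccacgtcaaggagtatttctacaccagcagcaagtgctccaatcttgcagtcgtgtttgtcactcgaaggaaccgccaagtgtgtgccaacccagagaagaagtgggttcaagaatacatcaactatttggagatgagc

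The other genes are Cd8a (chr6:71373427-71379173), Lck (chr4:129548344-129573641), Nkg7 (chr7:43437073-43438249), Gzma (chr13:113093825-113100981) and Gzmb (chr14:56258838-56262260). Of their transcripts' 50-base windows, 0.1% in Cd8a and none in the other 4 occur in another gene, against 2.2% in Cd3e, 0.3% in Cd3d and none in Cd3g.

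Total expected counts ranged from 43.66 to 58.19 M (1e06) per library. The microglial genes Csf1r (2416 to 7353 CPM), Cx3cr1 (975 to 3291 CPM) and P2ry12 (239 to 2011 CPM) had counts in all 23 libraries, where CPM is the count per 1e06 counts of the library after TMM scaling. The library numbers in the sample titles fall into a run from 1 to 11 (10 libraries) and a run from 12 to 24 (13 libraries), and all 3 young repopulated libraries are in the second. What the numbers stand for is not stated.

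On a per-length scale, Ccl5 stood far above the other 9 genes. Its median deposited TPM, a level scaled for transcript length and depth, over the 23 libraries was 35.9, with a range from 6.22 to 243. Lck followed at a median of 0.49 TPM, and the other 8 genes had a median of 0. For comparison, Csf1r had a median of 2303 TPM. Ccl5 took 16909 reads in all, Lck 341, Cd8a 110, Gzma 106, Trbc2 100, Gzmb 72, Cd3d 68, Cd3g 61, Nkg7 41 and Cd3e 40. Apart from Ccl5, no gene had more than 63 reads in any library.

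**Figure D1:**
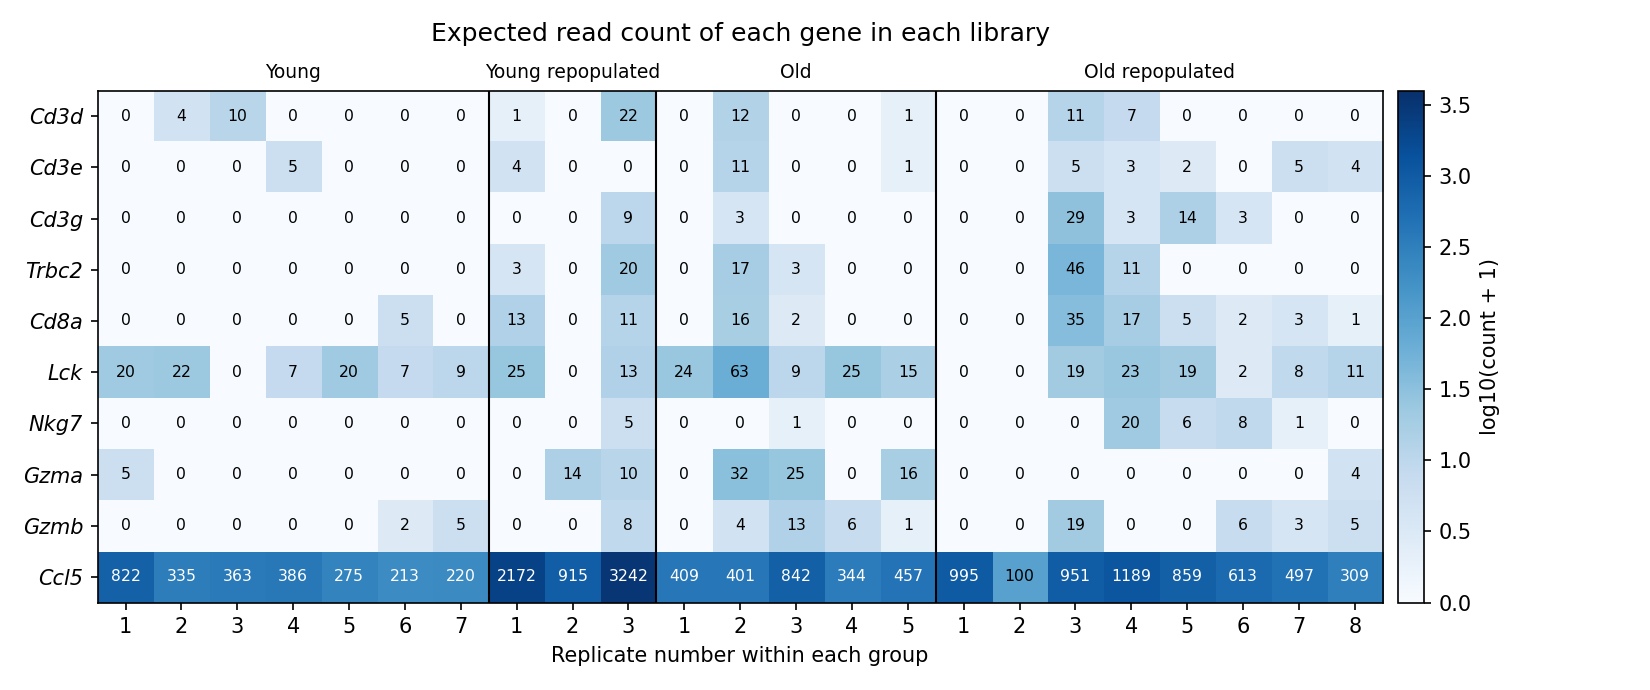
Expected read count, rounded, of the 10 genes (rows) in each of the 23 libraries (columns, grouped by condition), with the colour on a log10(count + 1) scale. Ccl5 has counts in every library, while the other genes are at 0 in many, and old repopulated replicates 1 and 2 hold no count of any gene but Ccl5.

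The CD3 and T cell receptor genes were found as traces in a minority of libraries. Cd3d, the CD3 delta chain, had counts in 8 of 23 libraries: 4 and 10 in young replicates 2 and 3, 1 and 22 in young repopulated replicates 1 and 3, 12 and 1 in old replicates 2 and 5, and 11 and 7 in old repopulated replicates 3 and 4. Cd3e, the epsilon chain, had counts in 9 libraries: 5 in young replicate 4, 4 in young repopulated replicate 1, 11 and 1 in old replicates 2 and 5, and 5, 3, 2, 5 and 4 in old repopulated replicates 3, 4, 5, 7 and 8. Cd3g, the gamma chain, was at 0 in all 7 young libraries, with 9 counts in young repopulated replicate 3, 3 in old replicate 2, and 29, 3, 14 and 3 in old repopulated replicates 3 to 6. No group had counts of any CD3 gene in all its libraries, and every group had at least 1 library at 0, so the groups overlapped.

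Trbc2 was at 0 in all 7 young libraries, which allows a group level of up to 0.00928 CPM (3 counts over the group; counting error only). It had 3 and 20 counts in young repopulated replicates 1 and 3, 17 and 3 in old replicates 2 and 3, and 46 and 11 in old repopulated replicates 3 and 4. Trbc1, its near copy, had counts in 8 libraries, including 21 in old replicate 2 and 8 in old repopulated replicate 5, where Trbc2 was at 0. Trac, the alpha chain constant region and not one of the 10 genes, had counts in 10 libraries, with 29 in old repopulated replicate 3 and 19 in young replicate 3.

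Cd8a, the CD8 alpha chain, had 5 counts in young replicate 6 and none in the other 6 young libraries. It had 13 and 11 in young repopulated replicates 1 and 3, 16 and 2 in old replicates 2 and 3, and 1 to 35 in 6 of 8 old repopulated libraries. The fitted log2 difference was 3.09 ± 1.44 (SE) in old repopulated against young libraries, with an edgeR adjusted p of 0.148. In old against young it was 2.01 ± 1.51 (SE; edgeR adjusted p 0.583), and it turned to -0.40 without old replicate 2.

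The T cell genes rested on few libraries. Summed over Cd3d, Cd3e, Cd3g, Trbc2 and Cd8a, there were 379 counts in all, and 288 of them (76.0%) were in 4 libraries: 126 in old repopulated replicate 3, 62 in young repopulated replicate 3, 59 in old replicate 2 and 41 in old repopulated replicate 4. At the other end, 8 libraries had none, from all 4 groups. All 5 genes had a count in 3 libraries, namely old replicate 2 and old repopulated replicates 3 and 4. In bulk RNA, fewer cells of a type and less RNA per cell cannot be told apart, and this holds for every level given here.

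Lck, the kinase that starts T cell receptor signalling, was the most widely found of the 9 trace genes, with counts in 19 of 23 libraries. Old libraries had 24, 63, 9, 25 and 15 counts (0.56 ± 0.39 CPM, SD, n = 5), and young libraries had 0 to 22 (0.26 ± 0.17 CPM, SD, n = 7). Young repopulated libraries had 25, 0 and 13, and old repopulated libraries had 0 to 23 (0.20 ± 0.17 CPM, SD, n = 8). The ranges overlapped in every comparison. On the log2 scale, old libraries differed from young by 1.10 ± 0.99 (SE; edgeR adjusted p 0.665) and old repopulated from old by -1.47 ± 0.96 (SE; edgeR adjusted p 0.670). Lck was present where the CD3 genes were absent: young replicates 1 and 5 and old replicate 1 had 20, 20 and 24 Lck counts and 0 counts of the 5 T cell genes.

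The granule genes were also traces. Summed over Gzma, Gzmb and Nkg7, the 4 libraries with the most T cell gene counts had 36 (old replicate 2), 23 (young repopulated replicate 3), 20 and 19 (old repopulated replicates 4 and 3) counts, and 1 library, old replicate 3, had more, 39. Gzma, which encodes granzyme A, had 0, 32, 25, 0 and 16 counts in old libraries and 0, 14 and 10 in young repopulated libraries. Among young libraries it had 5 counts in replicate 1 and 0 in the other 6, and among old repopulated libraries 4 in replicate 8 and 0 in the other 7. The 2 libraries with the most T cell counts among old repopulated ones, replicates 3 and 4, had no Gzma. The log2 difference was 4.11 ± 1.496 (SE) in old against young (edgeR adjusted p 0.162) and -4.58 ± 1.45 (SE) in old repopulated against old (edgeR adjusted p 0.189), and neither passed 0.05. The interaction, the change with repopulation at old age less that at young age, was -7.92 ± 2.15 (SE; edgeR adjusted p 0.386) for Gzma.

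Gzmb, which encodes granzyme B, had counts in 11 libraries: 2 and 5 in young replicates 6 and 7, 8 in young repopulated replicate 3, 4, 13, 6 and 1 in old replicates 2 to 5, and 19, 6, 3 and 5 in old repopulated replicates 3, 6, 7 and 8. Its ranges overlapped in all groups. Nkg7, the granule membrane protein, had counts in 6 libraries: 5 in young repopulated replicate 3, 1 in old replicate 3, and 20, 6, 8 and 1 in old repopulated replicates 4 to 7. It was at 0 in all 7 young libraries. Gzma, Gzmb and Nkg7 together had counts in 3 of 7 young, 2 of 3 young repopulated, 4 of 5 old and 6 of 8 old repopulated libraries.

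Cd3e, Cd3g, Nkg7 and Gzmb had too few counts for the test across genes and were each tested on their own, by an exact two-sided permutation test of the difference in mean log2 CPM. Of 20 such tests, 4 genes in 5 comparisons, 0 had an unadjusted p under 0.05, and the lowest was 0.103, for Cd3g and for Nkg7 in old repopulated against young. With no filter on low counts these genes could enter edgeR's test, where the same 2 had adjusted p of 0.0590 and 0.0565.

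Ccl5 was higher in young repopulated than in young libraries, and it was the single call among the 6 tested genes in any comparison. In this one, 1.34% of all genes tested were called. Young libraries had 17.1, 6.82, 8.18, 8.77, 5.87, 4.69 and 4.82 CPM, and young repopulated libraries had 46.4, 20.3 and 71.6 CPM. Every young repopulated library lay above every young library. The log2 fold change was 2.52 ± 0.49 (SE), a fold of 5.73, with an edgeR adjusted p of 0.0117. The call was lost without young repopulated replicate 1 (log2 fold change 2.51, edgeR adjusted p 0.0535) and without replicate 3 (2.05, 0.0920), each of which leaves 2 libraries. Within library numbers 12 to 24, which hold all young repopulated and 4 young libraries, it was 2.96 (edgeR adjusted p 0.0020).

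In old mice the Ccl5 values overlapped. Old libraries had 8.20, 7.67, 18.6, 7.62 and 10.2 CPM, and old repopulated libraries had 20.3, 1.88, 18.6, 21.6, 16.1, 14.1, 10.4 and 6.49 CPM. The log2 fold change of old repopulated against old was 0.39 ± 0.43 (SE; edgeR adjusted p 0.859), and it was -0.23 within library numbers 12 to 24. Against young libraries, old libraries differed by 0.38 ± 0.44 (SE; edgeR adjusted p 0.757; -0.43 within library numbers 1 to 11) and old repopulated libraries by 0.76 ± 0.39 (SE; edgeR adjusted p 0.194). Group means ordered from young (8.04 ± 4.31 CPM, SD, n = 7) through old (10.5 ± 4.67, SD, n = 5) and old repopulated (13.7 ± 6.95, SD, n = 8) to young repopulated (46.1 ± 25.6, SD, n = 3), and none of the first 3 differed from its neighbour beyond its spread.

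Whether the Ccl5 change with repopulation differed between ages was tested directly. The interaction was -2.13 ± 0.65 (SE) on the log2 scale, with an edgeR adjusted p of 0.423 over all genes. Old repopulated set against young repopulated libraries gave -1.75 ± 0.47 (SE; edgeR adjusted p 0.361). That comparison was called with the run of library numbers as a term (-2.03, edgeR adjusted p 0.0378), within numbers 12 to 24 (-2.18, edgeR adjusted p 0.0034) and by voom with sample quality weights (-2.23, limma adjusted p 0.0029). The interaction was called within numbers 12 to 24 (-3.20, edgeR adjusted p 0.0146) and by voom (-2.82, limma adjusted p 0.0294), and leaving out 1 library gave edgeR adjusted p-values from 0.238 to 0.716.

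**Figure D2:**
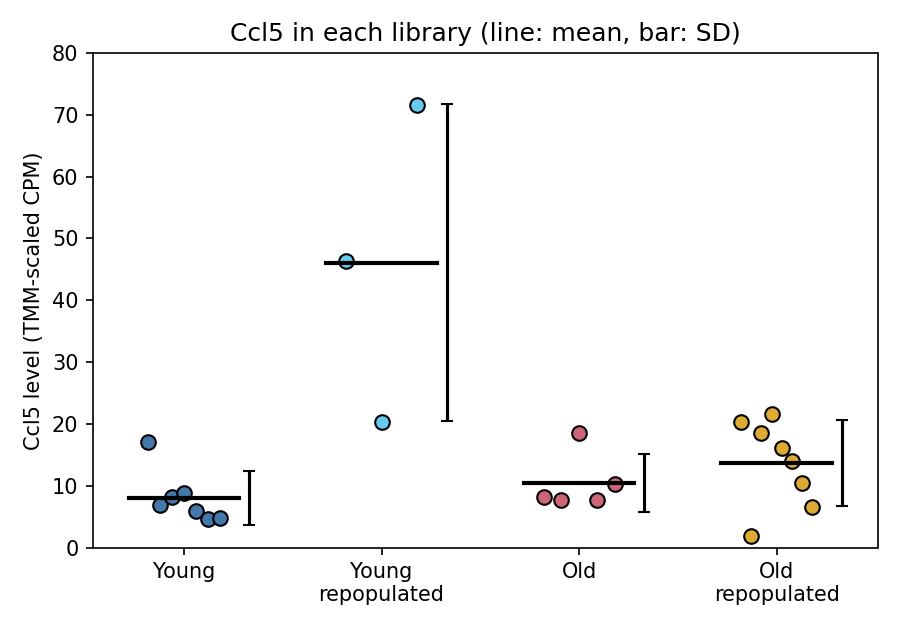
Ccl5 level in TMM-scaled CPM (linear axis) in each library by group, where points are libraries, horizontal lines group means and bars the SD. The 3 young repopulated libraries lie between 20.3 and 71.6 CPM, above all young libraries, and the old and old repopulated ranges overlap.

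Ccl5 levels are set here beside the T cell gene counts of the same libraries, with no test of their association. Young repopulated replicate 2 had 20.3 CPM of Ccl5 and 0 counts of the 5 T cell genes, Lck, Nkg7 and Gzmb, with 14 counts of Gzma. Old repopulated replicate 1 had 20.3 CPM of Ccl5 and 0 counts of all 9 other genes. Of the 6 libraries with more than 15 T cell counts, 5 were among the 9 with the most Ccl5: young repopulated replicates 3 and 1 (62 and 21 T cell counts, 71.6 and 46.4 CPM of Ccl5) and old repopulated replicates 4, 3 and 5 (41, 126 and 21 counts, 21.6, 18.6 and 16.1 CPM). The sixth, old replicate 2, had 59 T cell counts and 7.67 CPM of Ccl5, below the median of 10.2 CPM over all libraries. Beside the Ccl5 difference between young repopulated and young libraries, the other marker lists gave these calls: 0 of 5 monocyte, 1 of 9 neutrophil (Mmp8), 1 of 6 dendritic cell (Cd209a) and 0 of 9 homeostatic microglial genes were called. Over all genes tested, 1.34% were called in that comparison. The summed level of the 5 monocyte genes was 15.2 to 227 CPM in young and 73.4 to 250 CPM in young repopulated libraries, and 2 of the 5 had an unadjusted p under 0.05. Of 6 genes of macrophages at the brain's borders, edgeR called 0, but 4 had an unadjusted p under 0.05 and their median log2 fold change was 1.24. Their summed level was 50.0 to 188 CPM in young and 234 to 271 CPM in young repopulated libraries, which did not overlap. Among 3 endothelial genes, Flt1 rose and Pecam1 fell. The part of these cell types in the Ccl5 result was not tested.

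**Figure D3:**
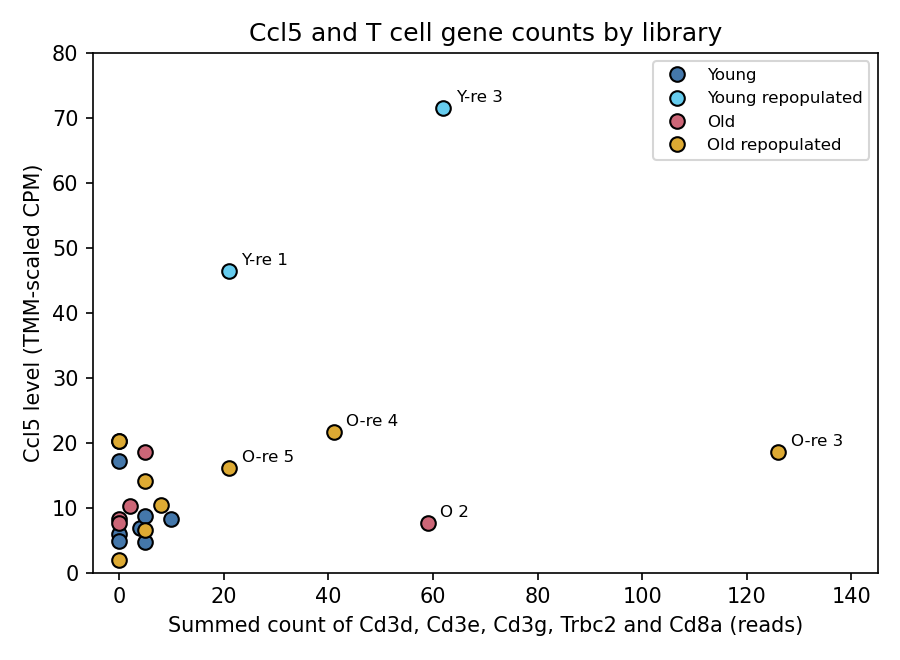
Ccl5 level (vertical axis, TMM-scaled CPM) against the summed read count of Cd3d, Cd3e, Cd3g, Trbc2 and Cd8a (horizontal axis) in the 23 libraries, coloured by group, with libraries above 15 T cell counts named. Of the 6 named libraries, 5 lie above 16 CPM, and old replicate 2 (59 counts) lies at 7.67 CPM.

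Set against all genes tested, the 10 genes gave a single call. In young repopulated against young, edgeR called 1 of the 6 tested genes, against 1.34% of all genes. In old against young, it called 0 of 6 against 2.83%, in old repopulated against old 0 of 6 against 0.278%, and in old repopulated against young 0 of 6 against 15.2%. DESeq2 also called 0 members in these 3 comparisons, and voom with sample quality weights called Gzma in old against young. In young repopulated against young, voom called 4 (Ccl5, Cd3d, Cd8a and Trbc2). Of these, Cd3d, Cd8a and Trbc2 had edgeR adjusted p of 0.689, 0.355 and 0.2115. The shares of all genes that voom and DESeq2 called are not reported here, so their counts of calls cannot be set against a background. Between the repopulated groups and in the interaction, 0 of 6 were called against 0% of all genes, with 2183 and 1542 of the 18720 genes at an unadjusted p under 0.05. The comparisons with young libraries share those 7 libraries. Among the 5 tested genes other than Ccl5, the lowest edgeR adjusted p was 0.0714, for Trbc2 in old repopulated against young, where the young libraries are all at 0, so that the mean of 0.137 CPM was at least 14.8-fold higher than the level 3 counts over the young group would give. Without old repopulated replicate 3 that bound was 3.07-fold, and Trbc2 fell under the count filter. Leaving Ccl5 aside, unadjusted p-values under 0.05 were reached by Gzma and Trbc2 in old against young and in young repopulated against young, by Cd8a and Trbc2 in old repopulated against young, and by Gzma in the other comparisons.

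The T cell receptor signalling genes that are not among the 10, a list of 20, had 13 tested members. edgeR called 0 in old against young, young repopulated against young or old repopulated against old (2, 1 and 1 at an unadjusted p under 0.05), and their median log2 fold changes were -0.16, 0.19 and -0.13, beside -0.01, -0.04 and 0.00 over all genes. Over all genes tested, 2.83%, 1.34% and 0.278% were called in those comparisons. In old repopulated against young libraries 15.2% of all genes were called, and 2 of the 13 were, which both fell. They were Prkcq, the kinase PKC theta, by 1.75 ± 0.38 (SE; edgeR adjusted p 0.0045), and Lcp2, the adaptor SLP-76, by 0.30 ± 0.07 (SE; edgeR adjusted p 0.0092). Lcp2 was far above trace level, with means of 238 CPM in young and 194 CPM in old repopulated libraries. Zap70, the kinase that binds phosphorylated CD3 chains, had a mean of 0.21 ± 0.16 CPM (SD, n = 7) in young and 0.36 ± 0.32 (SD, n = 5) in old libraries. Cd5, a T cell surface receptor, was found in every library, at 4.30 ± 1.09 CPM (SD, n = 7) in young and 3.05 ± 2.09 (SD, n = 8) in old repopulated libraries.

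Icos, the inducible costimulator of T cells, was lower after repopulation at both ages. Its level was 3.36 to 6.24 CPM in young, 1.37, 0.955 and 1.30 in young repopulated, 1.22 to 3.85 in old and 0.273 to 1.85 CPM in old repopulated libraries. All young repopulated and all old repopulated libraries lay below every young library, while old and old repopulated ranges overlapped. The young libraries, the highest for Icos, held 14 counts of Cd3d, 5 of Cd3e, 5 of Cd8a and 0 of Cd3g and Trbc2. Icos fell by 1.98 ± 0.49 (SE) on the log2 scale in young repopulated against young (edgeR adjusted p 0.0454), and by 1.73 ± 0.36 (SE) in old repopulated against old (edgeR adjusted p 0.0394). Both values lie near the threshold: leaving out 1 library ended the first call in 14 of 23 fits (adjusted p up to 0.253) and the second in 16 of 23 (up to 0.148). In old repopulated against young it fell by 2.63 ± 0.34 (SE; edgeR adjusted p 9.27e-05), and no fit without 1 library ended that call. Of the 8 tested genes of the residence and inhibition list of 10, Icos was the 1 called in the first 2 of these comparisons. Over all genes tested, 1.34%, 0.278% and 15.2% were called in these comparisons, in the order given. In the third, Ctla4, an inhibitory receptor of T cells, was called higher (4.17 ± 1.33 SE; edgeR adjusted p 0.0367), a call lost in 8 of 23 fits without 1 library. Its reads are divided between 2 identifiers in the tables, of which this is the larger, so its value is uncertain.

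Several NK cell receptor and regulator genes were higher in old than in young libraries. Of this list of 16, 9 were tested: 3 rose in old against young, 5 rose in old repopulated against young, and no called gene fell. Over all genes tested, 2.83% and 15.2% were called in these comparisons. Of those calls, 486 of 530 and 1739 of 2847 were rises. edgeR called 0 of the 9 listed genes in old repopulated against old and in young repopulated against young (1 and 3 at an unadjusted p under 0.05). The median log2 fold change was 4.09 in old against young (3.09 with the genes at 0 in all young libraries set to their lower bound) and 3.72 in old repopulated against young (2.94 so set), beside -0.01 and -0.02 over all genes. Klrk1, which encodes the activating receptor NKG2D, had 0 to 0.902 CPM in young libraries, 0.281, 4.09, 21.1, 2.51 and 7.79 CPM in old and 0.451 to 9.12 CPM in old repopulated libraries. Klrk1 differed by 5.10 ± 1.05 (SE; edgeR adjusted p 0.0103) on the log2 scale in old and by 4.36 ± 0.98 (SE; edgeR adjusted p 0.0055) in old repopulated against young. The ranges overlapped through old replicate 1 and young replicate 3, and the first call was lost without old replicate 3 (4.13, edgeR adjusted p 0.0647).

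Klrd1, which encodes CD94, had 0.308 to 1.87 CPM in young, 0.281 to 18.5 in old and 0.601 to 14.2 CPM in old repopulated libraries, which overlapped. It rose by 3.00 ± 0.80 (SE; edgeR adjusted p 0.0426) in old against young, a call lost in 10 of 23 fits without 1 library (adjusted p up to 0.278) and with voom (limma adjusted p 0.0669) or with library runs as a term (0.0939). It rose by 2.94 ± 0.76 (SE; edgeR adjusted p 0.0121) in old repopulated against young. Tbx21, which encodes the transcription factor T-bet, was at 0 in all young libraries and averaged 0.253 CPM in old and 0.320 CPM in old repopulated libraries. That is at least 27.3-fold and at least 34.4-fold higher than 3 counts over the young group, with edgeR adjusted p of 0.0193 and 0.0042, and the first was 0.0652 without old replicate 3. In old repopulated against young, S1pr5, a receptor for sphingosine phosphate (log2 fold change 3.72 ± 1.12 SE, edgeR adjusted p 0.0280, and up to 0.0622 without 1 library), and Il2rb, the interleukin 2 receptor beta chain (at least 19.5-fold higher, edgeR adjusted p 0.0302), were also called. Of the 73 Il2rb counts in old repopulated libraries, 49 were in replicate 3, without which the bound was 7.52-fold and the gene fell under the count filter.

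The Klrk1 rise was larger in the higher run of library numbers. Within library numbers 12 to 24, Klrk1 differed by 6.22 in old against young and by 5.94 in old repopulated against young (edgeR adjusted p 0.00024 and 8.4e-05). Within numbers 1 to 11 the values were 2.84 and 2.49, with edgeR adjusted p of 1.0 and 0.578, on 3 young, 2 old and 5 old repopulated libraries. Klrd1 in old against young differed by 4.09 in the higher run (edgeR adjusted p 0.0028) and by 0.83, not called, in the lower run. Tbx21 in old against young differed by 6.69 on the fitted log2 scale in the higher run (edgeR adjusted p 0.0083). In the lower run it differed by 6.42 and was not called. That value rests on old replicate 2 (0.421 CPM), because old replicate 1 and all young libraries were at 0. Il2rb was highest in the lower run, in old repopulated replicate 3 (0.956 CPM) and old replicate 2 (0.631 CPM). Klrk1 and Klrd1 are not limited to NK cells, and NK cell markers beside them differed in level. Klrb1c, which encodes NK1.1, had counts in 21 of 23 libraries, with means of 0.236 ± 0.187 CPM (SD, n = 7) for young and 0.643 ± 0.374 CPM (SD, n = 8) for old repopulated libraries. Old repopulated differed from young libraries by 1.44 ± 0.75 (SE; edgeR adjusted p 0.202) for Klrb1c, which was not called. Ncr1, which encodes NKp46, had 0 counts in young, 3 in young repopulated, 4 in old and 5 in old repopulated libraries in all, and Klra8 had 0, 3, 1 and 3. Klrg1 had 0, 0, 1 and 7 counts and Eomes 0, 3, 1 and 11.

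Monocyte markers were also called higher in old and old repopulated against young libraries, where 2.83% and 15.2% of all genes tested were called. The association of monocyte markers with the NK list genes was not tested. Of the 5 monocyte genes, all tested, 3 rose in old against young (Ly6c2, Plac8, Ccr2) and 4 in old repopulated against young (Vcan, Ly6c2, Chil3, Ccr2). Their summed level was 15.2 to 227 CPM in young, 113 to 2064 in old and 84.3 to 2718 in old repopulated libraries. Ccr2, the receptor that brings monocytes out of the marrow, was highest in old replicate 3 (562 CPM) and old repopulated replicate 6 (452 CPM), and Klrk1 was highest in old replicate 3 (21.1 CPM). Young replicate 3 had the highest Ccr2 (45.8 CPM) and the highest Klrk1 (0.902 CPM) of the young libraries. By contrast, Il2rb was highest in old repopulated replicate 3 (0.956 CPM), where Ccr2 was at 36.9 CPM. Among dendritic cell genes, Cd209a and Flt3 (2 of 6) rose in both comparisons, as did 5 of 9 neutrophil genes. Of 6 genes of macrophages at the brain's borders, 1 rose in old and 4 in old repopulated libraries. Of the 9 homeostatic microglial genes, 1 fell in old and 4 in old repopulated libraries. The part of these other cell types in the Klrk1, Klrd1 and Tbx21 results was not tested.

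**Figure D4:**
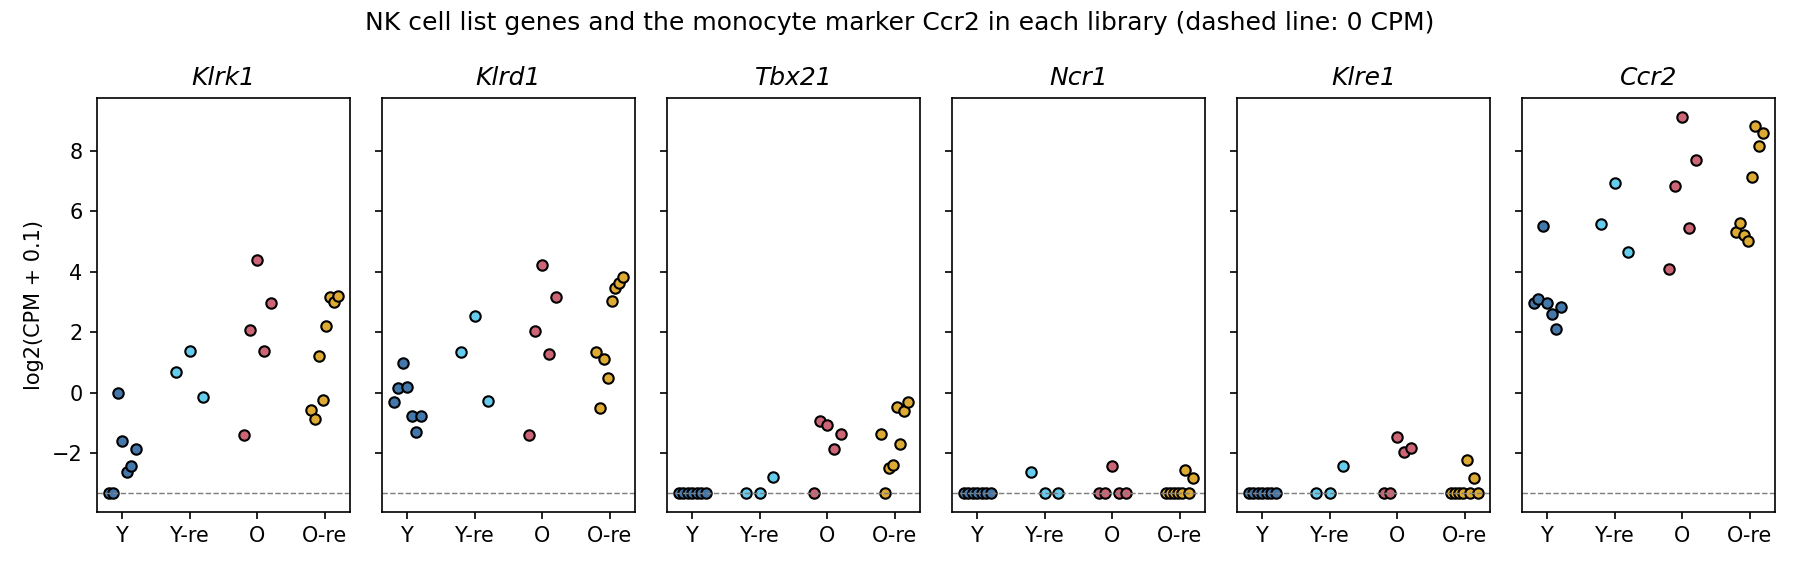
Levels of 5 genes of the NK cell list and the monocyte marker Ccr2 in each library by group, as log2(CPM + 0.1), where the dashed line is 0 CPM. Klrk1 and Klrd1 are higher in most old and old repopulated libraries, as is Ccr2, while Ncr1 does not exceed 0.0884 CPM in any library.

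Other effector genes of killer cells stayed at trace level. Of the 7 genes (Prf1, Gzmk, Gzmm, Ctsw, Fasl, Ifng, Xcl1), 3 were tested and edgeR called 0 in any comparison (0 in old against young, 0 in young repopulated against young and 1 in old repopulated against young had an unadjusted p under 0.05), with median log2 fold changes of 0.18 in old against young and -0.50 in young repopulated against young, beside -0.01 and -0.04 over all genes. Over all genes tested, 2.83% were called in old against young, 1.34% in young repopulated against young and 15.2% in old repopulated against young. The share was 0.278% in old repopulated against old, and 0% between the repopulated groups and in the interaction. Ifng, the gene of interferon gamma, had 10 counts in all in old libraries, 3 in young repopulated and 0 in young and old repopulated libraries. Prf1, which encodes perforin, had 96 counts in young libraries, 80 of them in a single library, and 17, 3 and 7 in old, young repopulated and old repopulated libraries.

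Among T cell lineage and subset genes, 9 of 12 were tested. edgeR called 1 of the 9 in old against young and 3 in old repopulated against young. Over all genes tested, 2.83% and 15.2% were called in these comparisons. Ccr7, the receptor that guides T cells and dendritic cells to lymph nodes, rose in old against young by 3.77 ± 0.81 (SE; edgeR adjusted p 0.0124, and 0.111 without old replicate 3) and in old repopulated against young by 3.29 ± 0.76 (SE; edgeR adjusted p 0.0060). Il7r, the interleukin 7 receptor, rose in old repopulated against young by 1.69 ± 0.40 (SE; edgeR adjusted p 0.0076), from a mean of 18.5 to 59.6 CPM. Ccr7 was highest in old replicate 3 (78.1 CPM), which had 5 counts of the 5 T cell genes. Old repopulated replicate 3, with the most such counts (126), had 5.40 CPM of Ccr7 and 41.3 CPM of Il7r. The part of other cell types in the Ccr7 and Il7r results was not tested. Ikzf3, which encodes the lymphoid transcription factor Aiolos, averaged 0.196 CPM in old repopulated and 0.00649 CPM, 2 counts in 1 library, in young libraries (edgeR adjusted p 0.0348, and up to 0.0661 without 1 library). Cd4, the helper T cell coreceptor, had counts in all libraries, at 1.69 ± 0.72 CPM (SD, n = 7) in young and 1.09 ± 0.55 CPM (SD, n = 8) in old repopulated libraries, and was not called. The lineage list's median log2 fold change was 1.43 in old against young and 1.28 in old repopulated against young, beside -0.01 and -0.02 over all genes. Of its 9 tested genes, 6 and 5 had a positive fold change in these comparisons, so the list did not shift as a whole.

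Genes of lymphocyte attraction, all 12 tested, moved in both directions. In old against young, 2 rose: Ccr1, a receptor for CCL5 and related chemokines, by 2.81 ± 0.63 (SE; edgeR adjusted p 0.0179), and Cxcl16, a chemokine anchored in the membrane, by 0.53 ± 0.14 (SE; edgeR adjusted p 0.0373). Leaving out old replicate 3 or 5 ended the Ccr1 call (adjusted p up to 0.125), and leaving out any of 8 libraries, old replicates 3 and 5 among them, ended that of Cxcl16 (up to 0.200). In old repopulated against young, Ccr1, Cxcl16 and Ccl2 rose and genes that fell included Ccl3, Ccl4, Cxcl10 and Ccr3. The chemokines Ccl3 and Ccl4, which like CCL5 belong to the CC family, fell by 0.93 ± 0.26 (SE; edgeR adjusted p 0.0187) and 0.98 ± 0.26 (SE; edgeR adjusted p 0.0141). edgeR called 0 of the 12 in young repopulated against young, where Ccl5 itself rose (5 at an unadjusted p under 0.05). Over all genes tested, 2.83% were called in old against young, 15.2% in old repopulated against young and 1.34% in young repopulated against young.

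Among 15 genes of the interferon gamma response and MHC class I, all tested, 2 rose in old against young: Ciita, the activator of MHC class II genes, by 4.52 ± 0.79 (SE; edgeR adjusted p 0.0046), and Nlrc5, the activator of MHC class I genes, by 0.85 ± 0.22 (SE; edgeR adjusted p 0.0365, and up to 0.217 without 1 library). Gbp2, a guanylate-binding protein, fell in old repopulated against old by 1.04 ± 0.20 (SE; edgeR adjusted p 0.0305, and up to 0.0929 without 1 library). In old repopulated against young, Ciita rose and Gbp2 fell. edgeR called 0 in young repopulated against young (2 at an unadjusted p under 0.05). Of all genes tested, 2.83% were called in old against young and 0.278% in old repopulated against old. The shares were 15.2% in old repopulated against young and 1.34% in young repopulated against young.

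B cell genes are given as the other lymphocyte class. Pax5, the B lineage factor, had 0, 0, 16 and 13 counts in young, young repopulated, old and old repopulated libraries. Cd79b, which encodes a B cell receptor chain, was present in every young library at 16.2 ± 1.93 CPM (SD, n = 7) and fell in young repopulated libraries to 3.00 ± 1.89 CPM (SD, n = 3; log2 fold change -2.43 ± 0.60 SE, edgeR adjusted p 0.0454, lost in 14 of 23 fits without 1 library).

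The genes whose log2 CPM followed the mean of Cd3d, Cd3e and Cd3g most closely over the 23 libraries were Gimap4 (Pearson r 0.84), Il2rb (0.78), Trac (0.73), H2-Q1 (0.73) and Rab11fip4 (0.69). Those closest to Ccl5 were H2-D1 (0.87), Ptk2b (0.83), Ctss (0.82), Ly9 (0.77) and Fos (0.77). H2-D1 averaged 1534 CPM in young, 2448 in young repopulated, 2018 in old and 1945 CPM in old repopulated libraries. These values describe the libraries, which share depth, library run and group, and carry no test.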

How the data were processed

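RNA was measured in 23 libraries made with a stranded poly(A) kit from 2.4 to 147 ng of RNA and read as single reads of 50 bases, per the labels' protocols. Per the submitters' processing notes, FastQC 0.11.5, STAR, RSEM and limma were used with the build GRCm38; their roles, further versions, the gene models and whether strand was used are not given in the sources used here. As their headers name them, the authors' deposited values are expected counts, estimated per gene and without further normalization, and TPM, scaled per length and depth, for 53090 genes per library. Within 1e-06, 87.26% of the expected counts were whole; all were rounded.

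Expected counts were tested in R 4.3.3 with edgeR 4.0.16: filterByExpr, TMM scaling, and the quasi-likelihood test on 1 model of all 23 libraries with 1 coefficient per group, for 6 contrasts. Calls needed a p under 0.05 after Benjamini-Hochberg adjustment over 18720 genes. SE values are the log2 fold change divided by the root of F. CPM used TMM-scaled library sizes, and log2 CPM used a prior count of 2. The procedure was tested on simulated data. TPM served only to compare levels between genes. Depth was 43.66 to 58.19 M counts, so 3 counts over a group at 0 set its upper limit, covering counting error only; reads without molecular identifiers are not independent molecules. No 2 libraries shared more than 0.46% of values, and none were merged.

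The members and gene lists were chosen with earlier results of these data known. All 10 members are named, and of other lists genes called in a described contrast, genes at 0, defining markers, and the 5 closest genes by correlation with the CD3 mean and with Ccl5. Zap70, Cd5 and Cd4 fall outside this rule and were chosen after their values were seen. Coordinates and sequences are from GENCODE M21 on GRCm38; proteins were not analysed here. Some genes of the lists are not reported here. Alternatives were RLE and upper-quartile factors, no filter, DESeq2 1.42.0, voom with sample quality weights (limma 3.58.1), only the groups compared, library run as a term, each run alone, and leaving out each of the 23 libraries.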

Additional observations from a re-analysis of the deposited data

Results flagged for a closer look

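In groups of 4 to 10 libraries, a library was set apart where its gap to the nearest other library took an unusually large share of the group's range. Of 27 groups with any spread, 18 held such a library. The rule's limit is set at about 1 in 20 for normally spread values, and that rate does not apply to counts mostly at 0. In a group whose other libraries are at 0, a single library with counts stands apart in this way. The values are in TMM-scaled CPM.

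Old replicate 2 stood above the other old libraries for Cd3d (0.2296), Cd3e (0.2105), Cd3g (0.0574), Cd8a (0.3061) and Trbc2 (0.3253). Old repopulated replicate 3 stood above its group for Cd3g (0.5658), Cd8a (0.6828), Trbc2 (0.8975) and Gzmb (0.3707). These libraries hold 59 of the 66 and 126 of the 206 T cell gene counts of their groups. Old replicate 3 stood apart for Nkg7 (0.0221) and for Ccl5 (18.61), and old repopulated replicate 8 for Gzma (0.08403).

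Among young libraries, replicate 3 stood apart for Cd3d (0.2255), replicate 4 for Cd3e (0.1136), replicate 6 for Cd8a (0.11), replicate 7 for Gzmb (0.1095), and replicate 1 for Gzma (0.1043) and Ccl5 (17.15). Without young replicate 1 the Ccl5 difference between young repopulated and young libraries was 2.82 (edgeR adjusted p 0.0063), against 2.52 with it.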

How the results depend on the processing

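No paired analysis was possible because the labels give no replicate numbers; the numbers used here only name libraries in accession order. The number of the 10 genes called rose from 0 to 1 in old against young with voom (Gzma), and from 1 to 4 in young repopulated against young with voom (Cd3d, Ccl5, Cd8a, Trbc2). It rose from 0 to 1 (Ccl5) in old repopulated against young repopulated with voom, with library run as a term and within numbers 12 to 24, and in the interaction with voom and within numbers 12 to 24. The shares of all genes called in these alternative fits are not reported here. Leaving out 1 library gave 0 to 1 calls in young repopulated against young and 0 to 1 in old repopulated against young, where the call was Cd8a without young replicate 6, Cd3g without any 1 young repopulated library, which changes the filter, or Trbc2 without old repopulated replicate 1. Of the exact tests of the 4 genes under the filter, 0 to 1 had p under 0.05 when 1 library was left out; the 1 was without old replicate 1 (p 0.0364). Without a filter their edgeR adjusted p ranged down to 0.0565 (Nkg7, old repopulated against young).

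Directions that turned were all of uncalled differences, apart from Ccl2 in old repopulated against young (-0.23 within numbers 1 to 11), and the cause was not tested. Ccl5 turned to -0.43 in old against young within numbers 1 to 11 and to -0.23 in old repopulated against old within numbers 12 to 24. With voom, Trbc2 was -0.48 in old repopulated against old (-0.47 with library run as a term), Lck -0.11 in young repopulated against young, and Cd3d 0.44 and Gzma 0.15 in old repopulated against young (Gzma 3.50 within numbers 12 to 24). Over fits without 1 library, the log2 difference ranged from -0.40 to 4.81 for Cd8a in old against young, from -1.79 to 2.50 for Cd3d and -0.83 to 0.71 for Lck in young repopulated against young, and from -1.12 to 0.22 for Cd3d and -2.76 to 2.30 for Gzma in old repopulated against young. In old repopulated against young repopulated it ranged from -3.0035 to 1.77 for Cd3d, -0.88 to 2.01 for Trbc2, -1.16 to 0.32 for Cd8a and -1.05 to 0.46 for Lck, and in the interaction from -3.22 to 1.56 for Cd3d and -5.0006 to 0.22 for Cd8a.

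The Ccl5 rise in young repopulated libraries lay between 2.05 and 3.05 in every fit run, and only leaving out young repopulated replicate 1 or 3 ended its call. Of 33 called results of other genes that could be fitted within numbers 1 to 11, 0 were called there, on 10 libraries. The share of all genes called in that run is not reported here. The count therefore cannot tell an absent difference from too few libraries. That run held no young repopulated library, so those comparisons were not run in it, and the fits of only the groups compared had no interaction. At these depths the 9 trace genes rest on at most 63 reads in a library, so differences of a few reads were not detectable.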
